A study of Mus musculus with 6 samples.

Results

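The genes described are 8 subunits of the oligosaccharyltransferase (OST) and the lectin chaperones calreticulin and calnexin: Ostc, Stt3a, Stt3b, Rpn1, Rpn2, Ddost, Dad1, Magt1, Calr and Canx. They were chosen by gene name, with earlier results of these data known, and all 10 were found among the 54532 genes of the count table. All 10 also passed the filter on low counts that left 14333 genes for testing, with 1500 to 43939 reads each in every library. RNA had been sequenced from cultured macrophages grown out of the bone marrow of C57BL/6 mice aged 32 to 34 weeks. The XWT group (Xbp1FL/FL, 3 libraries) carried floxed Xbp1, a gene whose transcription factor product serves the response to unfolded protein, and the XKO group (Xbp1ΔMf, 3 libraries) lacked Xbp1 in macrophages by its label. Cells of both groups had been primed with LPS, bacterial lipopolysaccharide, and then spent 48 h in medium that wild-type primary hepatocytes had conditioned. The sources used here name neither the recombinase, its promoter nor the number of animals or cultures behind the libraries. P-values therefore reflect how far these libraries vary, and that variation may be technical.

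The OST sits in the membrane of the endoplasmic reticulum (ER) and moves a preassembled sugar tree from the lipid dolichol onto asparagines of new proteins. It exists as a complex built on the catalytic subunit STT3A, which acts at the translocon while a protein is still being made, and as a complex built on STT3B, which can act later on sites that were skipped. Enzymes then trim glucoses from the tree, and calnexin in the membrane and calreticulin in the lumen bind the trimmed form and hold the protein for folding. Many genes of ER folding and glycosylation are known targets of XBP1 and of the related factor ATF6. The single comparison of the series asks what loss of Xbp1 does to macrophage transcripts in this setting.

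ER stress response elements are short promoter motifs at which ATF6 and XBP1 are known to act, so the promoters of Ddost, Stt3a, Calr and Canx are shown for their motif content. Of these 4 genes only Ddost was called, while Stt3a had a lower mean in XKO and Calr and Canx higher means without passing the test. RefSeq windows (GRCm38.p6) of 250 bases before to 50 bases after the start site were given for 9 of the 10 genes, not for Ostc. The motifs searched on both strands were ERSE (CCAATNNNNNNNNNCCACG), ERSE-II (ATTGGNCCACG), UPRE (TGACGTGG) and the CCACG box that lies inside ERSE and ERSE-II. Capitals mark the fixed letters of every match, and a match on the reverse strand reads as its reverse complement.
Ddost, chr4:138304488-138304787, plus strand: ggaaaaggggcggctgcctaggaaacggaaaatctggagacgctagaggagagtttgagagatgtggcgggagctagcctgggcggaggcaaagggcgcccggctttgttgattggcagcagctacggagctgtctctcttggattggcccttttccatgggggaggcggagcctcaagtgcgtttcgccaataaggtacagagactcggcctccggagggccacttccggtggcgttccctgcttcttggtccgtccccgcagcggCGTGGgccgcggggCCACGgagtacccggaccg
Stt3a, chr9:36767573-36767872, minus strand: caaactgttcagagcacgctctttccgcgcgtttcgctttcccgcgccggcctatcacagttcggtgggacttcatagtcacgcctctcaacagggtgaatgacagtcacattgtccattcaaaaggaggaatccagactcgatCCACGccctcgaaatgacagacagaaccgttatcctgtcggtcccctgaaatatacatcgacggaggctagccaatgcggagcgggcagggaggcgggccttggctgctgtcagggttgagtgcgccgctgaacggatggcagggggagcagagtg
Calr, chr8:84846882-84847181, minus strand: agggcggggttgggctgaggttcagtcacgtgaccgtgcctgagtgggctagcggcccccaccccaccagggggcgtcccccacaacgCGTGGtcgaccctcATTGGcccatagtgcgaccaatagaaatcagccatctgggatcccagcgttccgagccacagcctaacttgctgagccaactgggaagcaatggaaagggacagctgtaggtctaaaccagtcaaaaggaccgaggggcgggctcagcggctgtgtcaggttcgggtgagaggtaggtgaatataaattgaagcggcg
Canx, chr11:50325624-50325923, minus strand: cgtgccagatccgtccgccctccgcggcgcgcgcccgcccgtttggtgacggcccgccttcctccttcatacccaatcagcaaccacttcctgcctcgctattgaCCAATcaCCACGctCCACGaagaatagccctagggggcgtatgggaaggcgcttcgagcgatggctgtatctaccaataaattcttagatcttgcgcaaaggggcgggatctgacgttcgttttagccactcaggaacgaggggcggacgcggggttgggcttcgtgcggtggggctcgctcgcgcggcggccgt
A complete ERSE was found in Calr (reverse strand, bases -162 to -144 from the start site) and in Canx (forward strand, -145 to -127, with another CCACG box inside its spacer at -138 to -134), and in none of the other 7 genes with a window. It occurred in 39 of all 32851 promoter windows of the table, or 0.119%. Ddost held a CCACG box on each strand, at 18 to 22 and 32 to 36 bases after the start, and Stt3a held 1 at -106 to -102. Stt3b held 1 at -239 to -235, Rpn1 held 2 and Dad1 held 1. Of the 9 genes with a window, only Rpn2 and Magt1 thus held no CCACG box. Such boxes were common, with 32.8% of all windows holding at least 1. None of the 9 genes matched ERSE-II or UPRE, which 0.0365% and 0.676% of all windows held. These matches describe letters in a window and say nothing of binding.

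Total counts per library ranged from 28354866 to 30891729. Xbp1 stood at 132 to 158 CPM in the XWT libraries and at 76.5 to 79.3 CPM in the XKO libraries (CPM are counts scaled to a common library total, here with TMM factors), with a log2 fold change of -0.94 (standard error 0.0769; edgeR quasi-likelihood test, adjusted p = 1.93e-06). Its count takes in the whole gene, deleted part or not. The XWT libraries differed from each other more than the XKO libraries did, with a mean chi-square per gene of 21.4 to 24.1 between XWT pairs and 2.94 to 4.90 between XKO pairs. XWT 3 lay nearer to the XKO libraries (26.5 to 31.2) than XWT 1 and XWT 2 did (48.4 to 61.4) over all genes, and results are also given without it. Summed over the 10 genes alone, the order differed. The summed chi-square against the XKO libraries was 679 to 782 for XWT 1, 1182 to 1381 for XWT 2 and 1238 to 1367 for XWT 3. This sum uses no TMM factors and gives more weight to genes with more reads, above all Calr (34872 to 43939 reads per library). Gene by gene, XWT 3 was the XWT library nearest to the XKO mean for 7 of the 10. The 8 macrophage markers, mostly Lyz2, summed to 39522 to 47858 CPM in XWT and 25260 to 26929 CPM in XKO. No count of the 6 hepatocyte markers found was seen in any library. The 13 stromal markers summed to 770.3 to 869 CPM in XWT and 70.6 to 89.6 CPM in XKO, and the 10 neutrophil markers, with Ly6g at 0, to 30.8 to 39.8 CPM in XWT and 61.2 to 65.0 CPM in XKO. The 7 markers of T and B cells, with Cd3e, Cd3d and Cd8a at 0, summed to 4.08 to 4.51 CPM in XWT and 2.35 to 2.64 CPM in XKO.

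Among the 10 genes, the OST subunit genes Ostc and Ddost were lower in XKO and none was called higher. The other 8 did not pass an adjusted p of 0.05 (edgeR quasi-likelihood test with Benjamini-Hochberg adjustment over 14333 genes), with adjusted p from 0.0844 to 0.858. Of all tested genes, 7.99% were called lower and 6.00% higher at the same threshold. At an unadjusted p under 0.05, 6 of the 10 were lower and 1 higher, against 16.3% and 14.5% of all tested genes. The median log2 fold change of the 10 was -0.18, and that of all tested genes was 0.0014. DESeq2 and limma-voom without quality weights also called Ostc and Ddost and no others. The authors' deposited table gave these 2 calls as well, with log2 fold changes of -0.35 for Ostc (the authors' deposited adjusted p = 0.00132) and -0.25 for Ddost (0.00683). Of the 23413 genes with an adjusted p in the authors' deposited table, 5.25% were lower and 3.77% higher at 0.05. That table rests on the same counts. Other settings gave other calls. With quality weights, limma-voom called Ostc, Stt3a, Rpn1 and Ddost lower and Calr higher. Over all 14333 genes it called 1469 lower and 1186 higher. The weights ran from 0.356 to 0.520 in XWT and from 1.61 to 2.93 in XKO, so every XWT library counted for less. With no filter on low counts, edgeR called Ostc, Stt3a and Ddost lower. Scaled by library size alone, it called Ostc lower and Calr higher. With trends by gene length and GC content removed, it called Ostc, Stt3a and Magt1 lower and Calr higher. The count of 2 lower genes became 6 without XWT 3, 1 without XWT 1, XKO 2 or XKO 3 and 0 without XKO 1. Calr was the 1 gene of the 10 called higher without XWT 1. Calls moved over all tested genes as well. The main fit had 1145 lower and 860 higher of 14333. Without XWT 3 there were 2164 lower and 2073 higher of 14636, and without XWT 1 975 and 639 of 14755. Leaving out 1 XKO library gave 532 to 599 lower and 274 to 316 higher, of 14652 to 14670.

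**Figure D1:**
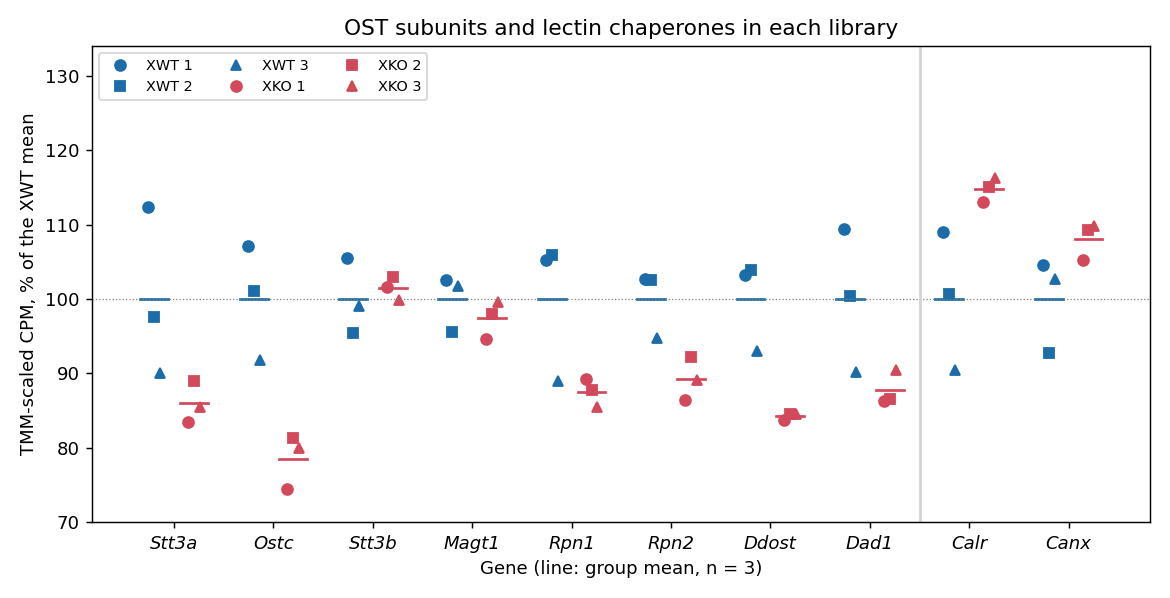
TMM-scaled CPM of each gene in each of the 6 libraries, as a percentage of the XWT mean of that gene, with horizontal lines at the group means (n = 3). Ostc, Stt3a, Rpn2 and Ddost lie lower in every XKO library than in any XWT library, Calr and Canx lie higher in every XKO library, and the groups overlap for the rest.

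The subunits that belong to the STT3A complex alone were lower in XKO by measured value, and 1 of them passed the test. Ostc encodes the small membrane subunit, also called DC2, that helps tie this complex to the translocon. The gene (ENSMUSG00000041084, protein-coding, chromosome 3 from 130695912 to 130709444, minus strand) was at 69.5, 65.6 and 59.6 CPM in the XWT libraries (1, 2 and 3, in that order throughout) and at 48.3, 52.8 and 51.9 CPM in the XKO libraries. Every XKO library was below every XWT library. The log2 fold change was -0.35 (standard error 0.0751; edgeR adjusted p = 0.00822), which is a level 21.4% lower, and among the 10 genes it was the largest change. The direction held in all 16 alternative settings and the call in 15 of them. It ended without XKO 1 (edgeR adjusted p = 0.0679).

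Stt3a encodes the catalytic subunit itself. The gene (ENSMUSG00000032116, chromosome 9 from 36729344 to 36767679, minus strand) was at 260.2, 226 and 208 CPM in the XWT libraries and at 193, 206 and 198 CPM in the XKO libraries. The groups did not overlap, though XWT 3 and XKO 2 lay close together. The log2 fold change of -0.22 (95% interval -0.39 to -0.046) missed the threshold (edgeR adjusted p = 0.0844). It passed without XWT 3 (-0.29, edgeR adjusted p = 0.00848), with no filter on low counts (-0.22, 0.0329), with limma quality weights (-0.22, 0.0268) and with trends by gene length and GC content removed (-0.41, 0.0214). Without XWT 1 it was smaller (-0.13, edgeR adjusted p = 0.215), as it was with library size alone (-0.15, 0.169). Krtcap2, which encodes the other accessory subunit of this complex and is no member of the 10, had a log2 fold change of -0.18 (95% interval -0.37 to 0.011) and was not called (edgeR adjusted p = 0.189) except without XWT 3 (-0.25, 0.0383).

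Of the subunits particular to the STT3B complex, Stt3b and Magt1 did not differ beyond the spread between libraries. Stt3b encodes the other catalytic subunit (ENSMUSG00000032437, chromosome 9 from 115242581 to 115310421, minus strand), with 173, 157 and 163 CPM in the XWT libraries and 167, 169 and 164 CPM in the XKO libraries. The XKO values lay inside the XWT range. The log2 fold change of 0.021 had a 95% interval of -0.12 to 0.16 (edgeR adjusted p = 0.858). Magt1 encodes an oxidoreductase subunit that helps STT3B reach sites near cysteines. The gene (ENSMUSG00000031232, chromosome X from 105968084 to 106011906, minus strand) was at 91.2, 84.9 and 90.4 CPM in XWT and at 84.1, 87.1 and 88.5 CPM in XKO, and the groups overlapped. Its log2 fold change was -0.037 (95% interval -0.17 to 0.099; edgeR adjusted p = 0.727). With trends by gene length and GC content removed it was -0.17 and called (edgeR adjusted p = 0.0404), and scaled by library size alone it was 0.031 and not called. Tusc3, the paralog that can take the place of MAGT1 and is no member of the 10, was at 26.4, 31.3 and 27.6 CPM in XWT and 24.8, 25.6 and 24.5 CPM in XKO. Its groups did not overlap, and its log2 fold change of -0.19 was not called (edgeR adjusted p = 0.1497).

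The paralogs were compared within each library through their deposited FPKM, which scales reads by gene length and library total. Stt3a made up 41.4%, 40.5% and 37.7% of the sum of Stt3a and Stt3b in the XWT libraries and 35.3%, 36.5% and 36.3% in the XKO libraries. Every XKO library had the smaller share. The means were 39.9% ± 1.97 in XWT and 36.0% ± 0.615 in XKO (SD, n = 3 each), a difference of -3.82 percentage points that ranged from -4.93 to -3.03 with each library left out. No test was run on this difference. The deposited table gives Stt3a a gene length of 8948 bases and Stt3b 4221 bases, and the share depends on these lengths.

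The subunits shared by both complexes all had lower mean values in XKO, and 1 was called. Ddost encodes OST48, a membrane subunit of the OST core (ENSMUSG00000028757, chromosome 4 from 138304730 to 138312628, plus strand). It was at 206, 208 and 186 CPM in the XWT libraries and at 167, 169 and 169 CPM in the XKO libraries. The groups did not overlap, and the XKO libraries varied by 0.582% around their mean. Ddost fell with a log2 fold change of -0.25 (standard error 0.0654; edgeR adjusted p = 0.0246), a level 15.7% lower. The call held in 9 of 16 alternative settings, and the direction in all 16. It ended without XWT 1, XKO 1, XKO 2 or XKO 3 (edgeR adjusted p from 0.0522 to 0.122), with library size alone (-0.18, 0.0519) and with length and GC trends removed (-0.15, 0.0986), and at a threshold of 0.01.

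Rpn1 and Rpn2 encode the ribophorins, large subunits of the complex. Rpn1 (ENSMUSG00000030062, chromosome 6 from 88084482 to 88105304, plus strand) was at 289, 291 and 244.6 CPM in the XWT libraries and at 245.3, 241 and 235 CPM in the XKO libraries. XWT 3 fell among the XKO libraries, while XWT 1 and XWT 2 stood above them. Rpn2 (ENSMUSG00000027642, chromosome 2 from 157279017 to 157326319, plus strand) was at 289, 289 and 267 CPM in XWT and at 244, 260.0 and 251 CPM in XKO, with no overlap. The log2 fold changes were -0.19 for Rpn1 (95% interval -0.35 to -0.032; edgeR adjusted p = 0.1005) and -0.16 for Rpn2 (95% interval -0.30 to -0.025; edgeR adjusted p = 0.106). Both were called without XWT 3 (-0.27 and -0.20; edgeR adjusted p = 0.00330 and 0.0165), and Rpn1 also with limma quality weights (-0.20, 0.0293). With library size alone they were -0.12 and -0.094, and Rpn2 was -0.10 with length and GC trends removed, none of them called. The strand setting of the counting is not known here. Exons of Rpn2 share 242 bases with the antisense gene Mroh8, which had at most 6 counts in any library, and exons of Rpn1 share 131 bases with Mir6376, which had 0.

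Dad1 encodes a small subunit named for the cell death that follows its loss (ENSMUSG00000022174, chromosome 14 from 54235479 to 54254104, minus strand). It was at 83.8, 76.9 and 69.0 CPM in the XWT libraries and at 66.1, 66.3 and 69.3 CPM in the XKO libraries. As with Rpn1, only XWT 3 reached the XKO range. The log2 fold change of -0.19 (95% interval -0.35 to -0.024) was not called (edgeR adjusted p = 0.116) except without XWT 3 (-0.26, 0.0111), and it was -0.12 without XWT 1 and -0.12 with library size alone. Of the remaining shared subunits, which are no members of the 10, the small Ost4 had a log2 fold change of -0.16 (edgeR adjusted p = 0.164; -0.21 and 0.0485 without XWT 3) and Tmem258 one of -0.082 (0.715).

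Over all 12 OST subunit genes tested, 11 had a negative log2 fold change, while 49.8% of all tested genes had a negative value. The 12 genes come from the same 6 libraries and were chosen with earlier results known, so their signs are not separate observations. Of the 12, edgeR called 2 lower and none higher, against 7.99% and 6.00% of all tested genes. DESeq2 and limma-voom without quality weights also called 2 lower and none higher. None was higher at an unadjusted p under 0.05 by edgeR, against 14.5% of all tested genes. The median was -0.18, against 0.0014 for all tested genes. By complex it was -0.22 for the 3 genes of the STT3A complex, -0.037 for the 3 of the STT3B complex and -0.18 for the 6 in both. No test compared these groups, and they were set out with the values known. With length and GC trends removed, the STT3A genes Stt3a, Ostc and Krtcap2 were at -0.41, -0.34 and -0.067. The STT3B genes Stt3b, Magt1 and Tusc3 were then at 0.039, -0.17 and -0.29. The shared genes Rpn1, Rpn2, Ddost, Dad1, Ost4 and Tmem258 were at -0.15, -0.10, -0.15, -0.20, -0.080 and -0.0027. The order of the STT3B and shared medians was thus reversed in that setting. Scaled by library size alone, which moves the median of all genes to 0.069, 10 of the 12 were negative with a median of -0.11. Macrophage markers also lay mostly below 0, 7 of 8 having negative log2 fold changes with a median of -0.17 and 1, Lyz2, being called. All 12 tested stromal markers were lower, with a median of -3.35, and 7 of 8 tested neutrophil markers were higher, with a median of 0.92. The part of these markers in the OST values was not tested, and in bulk RNA fewer cells of a type and less RNA per cell cannot be told apart.

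**Figure D2:**
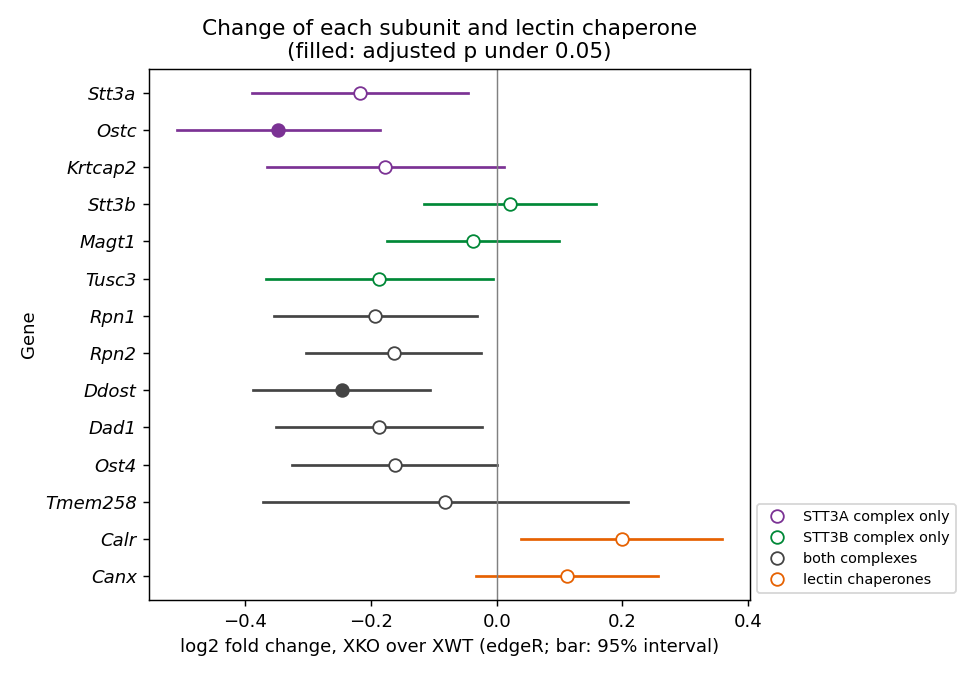
Log2 fold change of XKO over XWT for the 12 OST subunit genes, grouped by complex, and for Calr and Canx, with 95% intervals from the edgeR fit of 3 against 3 libraries and filled points at an adjusted p under 0.05. Ostc (-0.35) and Ddost (-0.25) are filled, Stt3b (0.021) and Magt1 (-0.037) lie near 0, and Calr (0.20) and Canx (0.11) lie on the other side of 0.

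The lectin chaperones had higher mean values in XKO and were not called. Calr encodes calreticulin, the soluble lectin that also stores calcium in the ER lumen (ENSMUSG00000003814, chromosome 8 from 84841850 to 84846934, minus strand). It was at 1345, 1242 and 1116 CPM in the XWT libraries and at 1395, 1419.9 and 1434 CPM in the XKO libraries. Every XKO library was above every XWT library, and XWT 3 was the farthest from XKO, the reverse of its place for the OST core genes. The log2 fold change was 0.20 (95% interval 0.038 to 0.36; edgeR adjusted p = 0.0911). It was called without XWT 1 (0.26, edgeR adjusted p = 0.0331), with library size alone (0.27, 0.0106), with limma quality weights (0.19, 0.0316) and with length and GC trends removed (0.26, 0.0140). Without XWT 3 it was smaller and not called (0.13, edgeR adjusted p = 0.0802).

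Canx encodes calnexin, the membrane-bound lectin (ENSMUSG00000020368, chromosome 11 from 50293961 to 50325673, minus strand). It was at 496, 439.8 and 486 CPM in the XWT libraries and at 498, 518 and 520.2 CPM in the XKO libraries. The groups did not overlap, but XWT 1 and XKO 1 were almost level. The log2 fold change of 0.11 (95% interval -0.033 to 0.26; edgeR adjusted p = 0.281) was called in none of the 16 alternative settings. It was 0.0050 with length and GC trends removed, 0.059 without XWT 2 and 0.18 with library size alone. Calr made up 80.9% ± 1.74 of the FPKM of both lectins in XWT and 81.8% ± 0.153 in XKO (SD, n = 3 each), with overlapping groups. Its difference of 0.98 percentage points was -0.011 without XWT 3. Non-overlapping groups were thus seen for 4 of the 10 genes with XKO lower and for 2 with XKO higher, against 18.6% and 17.5% of all tested genes.

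Compared per length, Calr was by far the most abundant of the 10, at 428 ± 41.7 FPKM in XWT and 489 ± 6.60 in XKO (SD, n = 3 each). Canx and Ddost came next in XWT, at 101 ± 6.08 and 94.1 ± 6.26 FPKM, with overlapping ranges. In XKO the ranges of these genes separated, with Canx at 109 ± 2.46 and Ddost at 79.0 ± 0.421 FPKM. Rpn2 and Rpn1 followed at 63.6 ± 3.26 and 60.9 ± 6.17 FPKM in XWT, overlapping each other. Then came Stt3b at 38.9 ± 2.01, Stt3a at 25.8 ± 3.04 and Ostc at 23.6 ± 1.91 FPKM, of which the last pair overlapped. Dad1 at 19.5 ± 1.97 and Magt1 at 19.0 ± 0.673 FPKM were the lowest and overlapped. In XKO the order was the same but for Magt1 (18.4 ± 0.475) and Dad1 (17.1 ± 0.453), which changed places. By FPKM the catalytic subunits thus lay below the core subunits Ddost, Rpn1 and Rpn2 in every library. All these ranks depend on the deposited gene lengths, which ran from 2120 bases for Ddost to 8948 for Stt3a, with 3916 for Dad1. Whether these lengths match the transcripts present was not tested. Tusc3 was at 8.27 ± 0.765 FPKM in XWT, below Magt1 in every library.

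**Figure D3:**
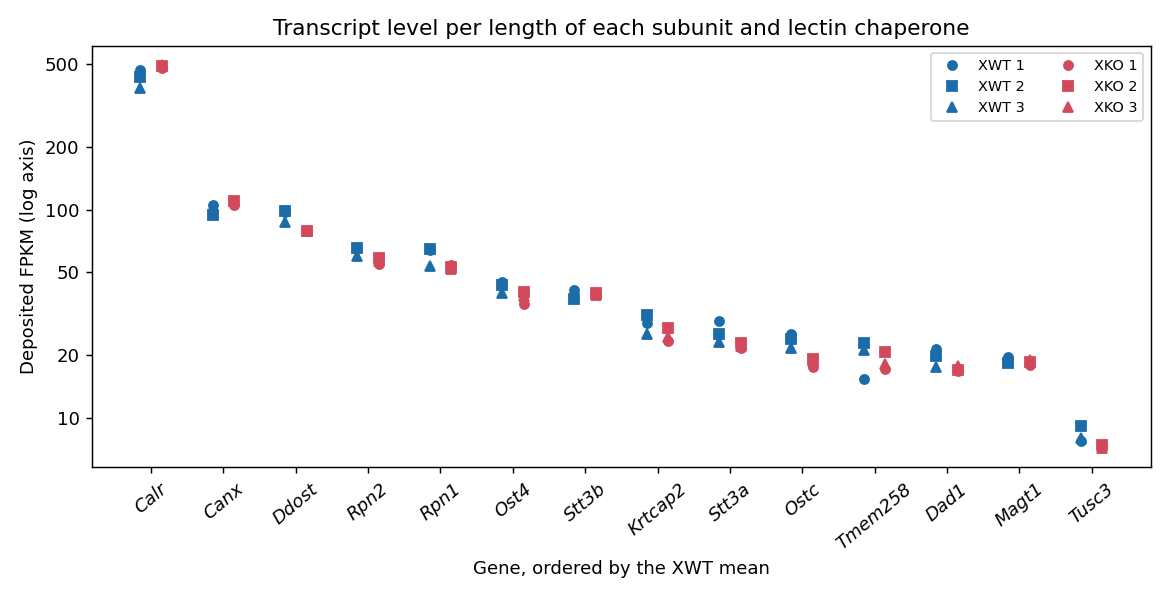
Deposited FPKM (log axis) of the 12 OST subunit genes and both lectin chaperones in each of the 6 libraries, ordered by the XWT mean. Calr lies between 384 and 495 FPKM and Ddost, Rpn1 and Rpn2 between 51.8 and 98.2 FPKM, while Stt3a, Stt3b and the small subunits lie below Rpn1.

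The 10 genes varied among themselves in how the XWT libraries were ordered. XWT 3 was the lowest XWT library for 7 of the 10, and the XWT library nearest to the XKO mean for 7 of the 10, among them all 6 OST genes that were lower at an unadjusted p under 0.05. For Stt3b, Magt1 and Canx the lowest was XWT 2. The coefficient of variation ran from 3.84% (Magt1) to 11.4% (Stt3a) in XWT and from 0.582% (Ddost) to 4.66% (Ostc) in XKO, and was larger in XWT for all 10. Without XWT 3 the called lower genes were Ostc, Stt3a, Rpn1, Rpn2, Ddost and Dad1. In that fit 2164 of all 14636 tested genes were called lower, against 1145 of 14333 in the main fit.

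**Figure D4:**
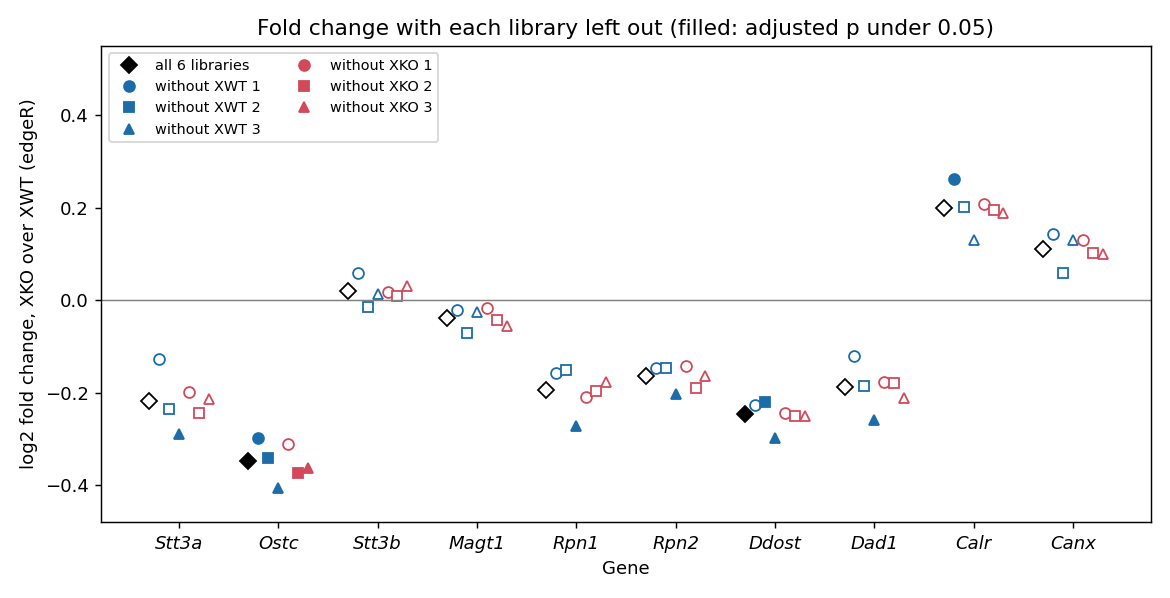
Log2 fold change of XKO over XWT for each of the 10 genes with all 6 libraries (black) and with each library left out in turn, filled where the edgeR adjusted p was under 0.05. Leaving out XWT 3 (blue triangles) gives the lowest value for the 6 OST genes Stt3a, Ostc, Rpn1, Rpn2, Ddost and Dad1, from -0.20 to -0.41, all filled, whereas Stt3b and Magt1 lie between -0.070 and 0.059 throughout.

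Over the 6 lists of neighbouring steps and other OST subunits, 53 genes were tested, of which 1 was higher and 5 were lower. Of all tested genes 6.00% were higher and 7.99% lower, and nothing particular to the lists is read from their counts. Enzymes that build the dolichol-linked sugar tree and its precursors numbered 23, all tested, of which 1 was higher and 1 lower (median log2 fold change -0.030). Dpm3, which anchors the synthase of dolichol-phosphate-mannose, was at 19.2, 20.1 and 16.8 CPM in the XWT libraries and at 14.04, 13.7 and 14.6 CPM in the XKO libraries, a log2 fold change of -0.41 (standard error 0.0961; edgeR adjusted p = 0.0142). Nus1, a subunit of the enzyme that makes the dolichol chain, rose from 105.3 ± 5.59 to 122 ± 2.05 CPM (SD, n = 3 each; log2 fold change 0.21, edgeR adjusted p = 0.0429). The call of Dpm3 ended without any 1 XKO library and that of Nus1 without any library but XWT 3. Nus1 was also not called with length and GC trends removed (0.11, edgeR adjusted p = 0.173). Without XWT 3 this list had 4 higher and 6 lower genes, where 2073 and 2164 of all 14636 tested genes were called. In the hexosamine pathway, which supplies the first sugar, 3 of 5 genes were tested and none was called by edgeR, DESeq2 or limma-voom. At an unadjusted p under 0.05, 2 of the 3 were lower and 0 higher, against 16.3% and 14.5% of all tested genes. The median log2 fold change of the 3 was -0.19. The lowest p-values of the pathway were those of Pgm3 (-0.31, edgeR adjusted p = 0.110) and Uap1 (-0.19, 0.130).

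The enzymes and partners that act with the lectin chaperones held no called gene. Of 10 genes of glucose trimming and the calnexin-calreticulin cycle 8 were tested, and none was called by edgeR, DESeq2 or limma-voom. Of all tested genes, edgeR called 7.99% lower and 6.00% higher. At an unadjusted p under 0.05, 1 of the 8 was lower and 0 higher, against 16.3% and 14.5% of all tested genes. The median log2 fold change of the 8 was 0.0086. The folding sensor gene Uggt1 had a log2 fold change of 0.012 (95% interval -0.12 to 0.15), the glucosidase II gene Ganab 0.0052 (-0.12 to 0.13) and the disulfide isomerase gene Pdia3, a partner of both lectins, 0.041 (-0.11 to 0.20), these 3 being named after their values were seen. Mlec, which encodes the lectin malectin, had a log2 fold change of -0.17 (edgeR adjusted p = 0.107) and was called without XWT 3 (-0.21, 0.0147). The calreticulin paralog Calr3 was near 1 CPM in every library (0.33, edgeR adjusted p = 0.464).

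Of the 11 genes of mannose trimming and release, all tested, 3 were lower and 0 higher, against 7.99% and 6.00% of all tested genes (4 lower and 1 higher at an unadjusted p under 0.05, against 16.3% and 14.5%; median -0.12; 0 higher also by DESeq2 and limma-voom). Man1a, a mannosidase of the Golgi, fell from 153 ± 8.99 to 123 ± 8.57 CPM, and the related Man1c1 fell from 204 ± 17.3 to 166 ± 1.51 CPM (SD, n = 3 each). Their log2 fold changes were -0.32 and -0.30 (edgeR adjusted p = 0.0101 and 0.0143). Engase, a cytosolic enzyme that cuts sugar trees, fell by 0.33 on the log2 scale (edgeR adjusted p = 0.0440), and this call ended without any library but XWT 1, with -0.21 without XWT 2. Of the lectin cargo receptors 4 of 5 were tested, with 1 lower and 0 higher, against 7.99% and 6.00% of all tested genes. At an unadjusted p under 0.05, 2 of them were lower and 0 higher, against 16.3% and 14.5%. The median log2 fold change of these receptors was -0.14, and DESeq2 and limma-voom also called 0 higher. Lman2, which encodes VIP36, fell from 271 ± 29.5 to 214 ± 6.70 CPM (SD, n = 3 each; log2 fold change -0.34, edgeR adjusted p = 0.0127). The counts of 3 and 1 became 0 without XKO 1 or XKO 2, and 1 and 0 without XKO 3. Those fits called 532 to 599 of all tested genes lower, against 1145 in the main fit. The marker differences given above stood between the same libraries, and their part in these values was not tested.

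**Figure D5:**
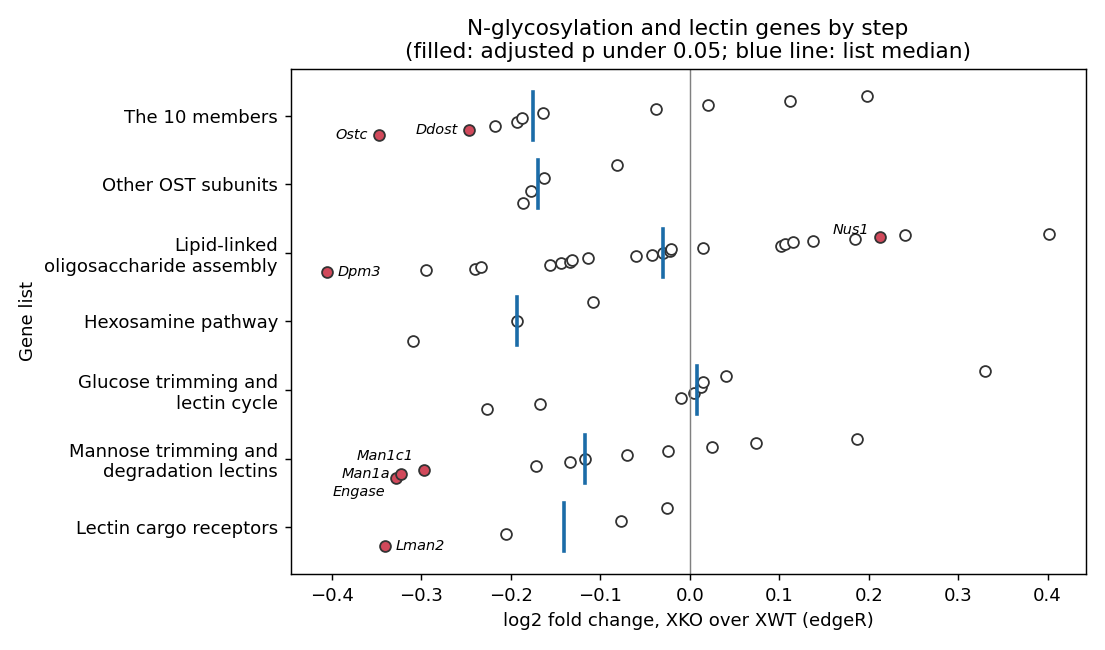
Log2 fold change of XKO over XWT (edgeR) for every tested gene of the 10 described and of 6 lists of neighbouring steps, 1 point per gene, filled at an adjusted p under 0.05, with a blue line at each list's median. The median is -0.18 for the 10 genes, -0.17 for the other OST subunits, -0.030 for assembly of the dolichol-linked sugar tree and 0.0086 for glucose trimming and the lectin cycle.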

How the data were processed

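Whole-number read counts per Ensembl gene, with no scaling, were deposited by the authors for 6 libraries, per the file headers. Also deposited by the authors, per the file headers, were FPKM, scaled counts averaged by group (signal), log2 fold changes and p-values with their adjusted form. RNA taken with Trizol was made into libraries with a NEBNext Ultra kit, per the labels' protocols. Bowtie 0.12.2, mm8 and mm10 are named without a role, per the submitters' processing notes. The sources used here name no counting program or strand setting. Coordinates are those of the deposited table and equal GENCODE M21 (GRCm38) for all 10 genes.

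Counts were tested with edgeR 4.0.16 in R 4.3.3 (filterByExpr, TMM, robust quasi-likelihood fit, 4 residual degrees of freedom). Benjamini-Hochberg adjustment ran over the 14333 tested genes, and genes under 0.05 were called. Standard errors come from the fold change and its F statistic (log2 value over root F). Intervals use the t distribution of the fit. CPM are TMM-scaled. Levels were compared between genes only as FPKM. The scripts were tested on simulated counts.

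The 10 genes and the lists were chosen with earlier results of these data known. Named are the 10 genes, Xbp1, all OST subunits, and from each other list up to 4 called genes with the smallest p, or 2 where none was called. Alternatives were DESeq2 1.42.0, limma 3.58.1 (voom, with and without quality weights), other scalings and filters, a threshold of 0.01, a replicate block, length and GC trends removed (GC known for 99.9% of tested genes) and each library left out.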

Additional observations from a re-analysis of the deposited data

How the results depend on the processing

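Leaving out 1 library changed most counts of called genes. The count of the 10 genes called lower (2) ranged from 0 to 6 and of those called higher (0) from 0 to 1. For OST subunits outside the 10 the lower count (0) ranged from 0 to 2. For dolichol-linked assembly the lower count (1) ranged from 0 to 6 and the higher count (1) from 0 to 4. For glucose trimming the lower count (0) ranged from 0 to 1, for mannose trimming the lower count (3) from 0 to 3 and the higher count (0) from 0 to 1, and for cargo receptors the lower count (1) from 0 to 2. Fits without a library have fewer residual degrees of freedom. Library size alone gave 1 lower and 1 higher of the 10 genes and 1 higher gene of mannose trimming. Quality weights gave 4 lower and 1 higher of the 10 genes and 3 lower genes of dolichol-linked assembly. Length and GC trends removed gave 1 higher of the 10 genes, 0 higher of dolichol-linked assembly, 1 lower of the hexosamine pathway and 2 lower cargo receptors. No filter gave 0 higher and 3 lower genes of dolichol-linked assembly. A threshold of 0.01 gave 1 lower of the 10 genes, 0 higher and 0 lower of dolichol-linked assembly, 0 lower of mannose trimming and 0 lower cargo receptors. Over all genes, 860 were higher and 1145 lower, against 1158 and 749 with library size alone, 2073 and 2164 without XWT 3, 460 and 749 without XWT 2, and 274 to 316 and 532 to 599 without 1 XKO library. The cause of these changes was not tested. Signs changed for Magt1 (0.031 with library size alone), for Stt3b (-0.014 to 0.059 with a library left out) and for Tmem258 (-0.24 to 0.027 with a library left out), none of them called there. The other 8 of the 10 genes kept their signs in all 16 alternatives.

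Libraries with the same number did not deviate together (correlations -0.043, -0.036 and -0.054 across genes), and no library correlated best with its own number. No pairing by number was thus seen. With 3 libraries a group these values cannot settle whether the numbers mark a shared batch. With a replicate block the count for dolichol-linked assembly called higher was 0 instead of 1 (Nus1), and Ostc (-0.35) and Ddost (-0.25) were called as before. With at least 1500 reads per gene and library, the standard errors of the 10 genes were 0.0635 to 0.0796 on the log2 scale, which limits the changes that 3 libraries a group can show.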
